A study of Danio rerio with 6 samples.

Results

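The embryonic globin and erythroid genes described here are hbbe2, hbae3, alas2, gata1a and slc4a1a. They were chosen by name, as the probe sets whose gene symbol in the platform annotation was 1 of these 5 symbols. That gave 6 probe sets for 5 genes, of 15502 tested probe sets and 8793 named genes. A probe set is a group of array probes that together report 1 transcript. All tissue came from wild-type AB embryos of the zebrafish, 52 hours after fertilization, with no treatment named in the labels. In 3 pools the retina kept its attached RPE, the retinal pigment epithelium that backs the photoreceptors, and the other 3 pools were retina alone. Each pool held 10 dissected tissues, and the labels call the pools biological replicates. RNA was labelled with 2 rounds of amplification from 33 ng per pool and read on an Affymetrix zebrafish array.

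Fish red blood cells keep their nucleus, and the primitive red cells of the embryo are already circulating at this age. They carry hemoglobin, a tetramer of alpha-type and beta-type globin chains that each hold a heme group. The embryo uses its own set of globin genes before the adult ones. The transcription factor encoded by gata1a directs red cell development, and zebrafish without it (the vlad tepes mutant) lack red blood cells. The enzyme encoded by alas2 starts heme synthesis in red cells, and slc4a1a encodes band 3, the anion exchanger of the red cell membrane.

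Of the 5 genes, both embryonic globins were higher in the pools with RPE attached, and alas2, gata1a and slc4a1a did not pass the test. A gene was called at an adjusted p under 0.05 in limma, a linear model fitted over all probe sets with Benjamini-Hochberg adjustment. The 2 genes called higher and 0 lower stand against 19.4% of all named genes called higher and 17% called lower, or 36.4% called in all. By probe set, 3 of 6 were called, all higher, against 34.5% of all probe sets (19% higher and 15.6% lower). The groups of pools did not overlap in 5 of the 6 probe sets, against 49.5% of all probe sets. In 4 the pools with RPE all lay above, against 28.7% of all, and in 1 below, against 20.8%. Separation of the groups was thus common over the whole array. The number of arrays limits the precision: 3 pools against 3 cannot give an exact permutation p under 0.1.

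The array medians were 73.2 to 74.5 in retina with RPE and 68.7 to 69.6 in retina. The pools held retinal tissue by their markers. The photoreceptor gene crx averaged 2747 ± 257 in retina with RPE and 3931 ± 282 in retina (SD, n = 3 each). The eye gene pax6a averaged 4441 ± 345 and 4959 ± 413, and the retinal gene atoh7 329 ± 7.82 and 750 ± 125. Both crx (log2 change -0.52, limma adjusted p = 0.00418) and atoh7 (-1.18, 1.9e-04) were called lower with RPE. The change of pax6a was not called (-0.16, limma adjusted p = 0.235). The visual cycle gene rpe65a, which marks the RPE, averaged 906.6 ± 200.3 in retina with RPE and 73.8 ± 12.1 in retina.

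The gene hbbe2, which encodes an embryonic beta globin chain, had the largest log2 change of the 5 by their brightest probe sets. Its only probe set read 139, 96.9 and 101.4 in the 3 retina with RPE pools, against 66.6, 69.0 and 67.5 in the 3 retina pools. All 3 pools with RPE lay above all 3 retina pools, and the first of them stood well above the other two. The retina pools were nearly level, with a ratio of highest to lowest of 1.04, against 1.43 among the pools with RPE. The mean was 112 ± 22.9 in retina with RPE and 67.7 ± 1.204 in retina (SD, n = 3 each). The log2 change of 0.71 ± 0.13 (SE) is a 1.64-fold rise with a 95% interval of 1.34 to 2.00 (limma adjusted p = 0.0031). In these pooled tissues more red cells and more globin RNA per cell cannot be told apart. Of 8793 genes, 164 had a larger log2 change, or 1.87%. Without the first pool with RPE the log2 change was 0.55 and the adjusted p 0.00632.

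The gene hbae3, which encodes an embryonic alpha globin chain, has 2 probe sets, and both were called higher. The brighter one read 5373, 3903 and 3543 in retina with RPE, against 2651, 3124 and 3511 in retina. The groups met almost end to end, with the lowest pool with RPE only just above the highest retina pool. The mean was 4273 ± 970 in retina with RPE and 3095 ± 431 in retina (SD, n = 3 each). The log2 change of 0.45 ± 0.16 (SE), or 1.37-fold with a 95% interval of 1.07 to 1.74, lay just inside the threshold (limma adjusted p = 0.0498). That call depended on single pools. It was lost without the first pool with RPE (log2 change 0.27, adjusted p = 0.158) or the second (0.0865), and without the first retina pool (log2 change 0.34, adjusted p = 0.149) or the second (0.0662).

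The name of the second hbae3 probe set ends in _s_at, a suffix that the maker uses for probes able to match more than 1 transcript, although the annotation lists it with hbae3 alone. It read 862, 611 and 562 in retina with RPE, against 368, 300.3 and 445 in retina. Again every pool with RPE lay above every retina pool, with the first pool with RPE highest. The log2 change was 0.86 ± 0.18 (SE), a 1.82-fold rise with a 95% interval of 1.38 to 2.39 (limma adjusted p = 0.00537). Leaving out any 1 pool kept the call, with log2 changes of 0.68 to 1.00. The log2 change of the second probe set exceeded that of the brighter one by 0.41. Relative to the retina means, that excess was 0.43, 0.40 and 0.41 in the 3 pools with RPE. The retina pools it is measured from were less even. There the brighter probe set deviated from its group mean by -0.21, 0.02 and 0.19 in log2. The second deviated by 0.0065, -0.29 and 0.28 in the same pools. An exact permutation test gave 0.1, its lowest attainable p, and 0.138 after adjustment over 11 comparisons between probe sets.

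**Figure D1:**
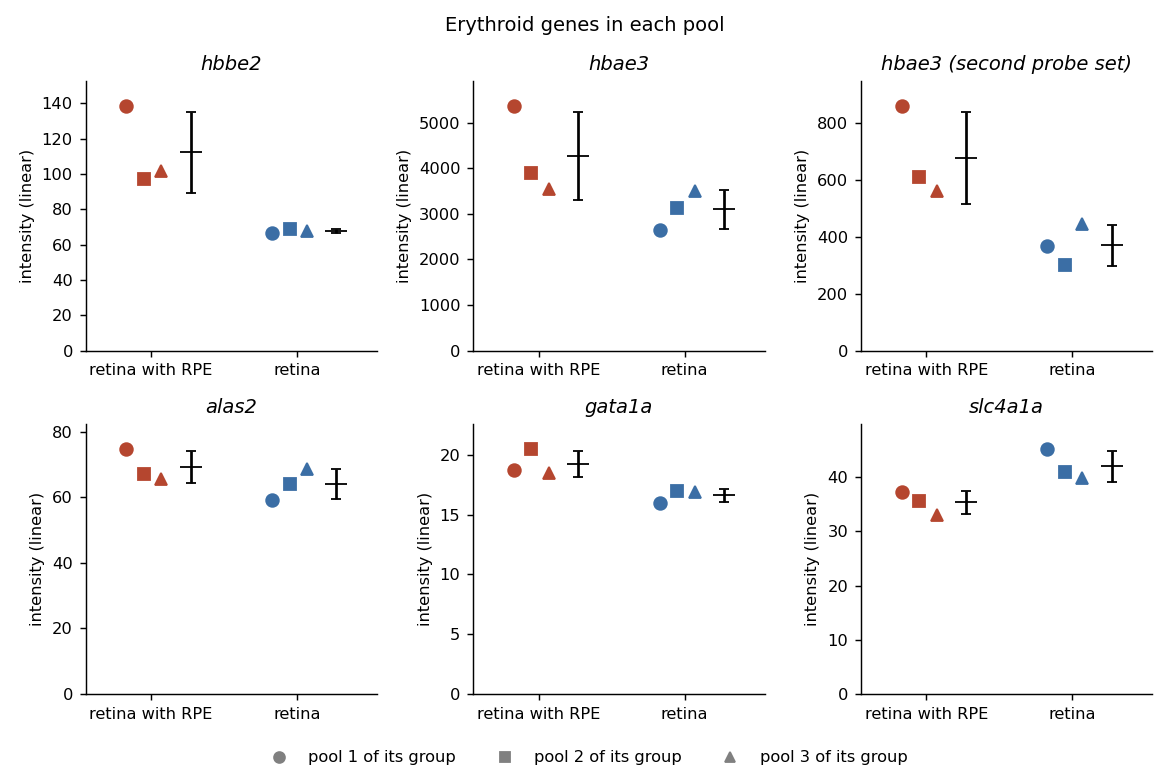
Linear intensity of each of the 6 probe sets in every pool, with retina with RPE on the left of each panel and retina on the right. Symbols mark the pool number within its group, and black marks give the mean and SD of 3 pools. The globin panels show the first pool with RPE highest, hbae3 at 5373 and hbbe2 at 139, while alas2 overlaps between groups and slc4a1a lies lower with RPE.

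The gene alas2, whose product makes the first precursor of heme in red cells, did not follow the globins past the test. Its probe set read 74.7, 67.2 and 65.5 in retina with RPE, against 59.3, 64.0 and 68.4 in retina. The groups overlapped, since the third retina pool read higher than 2 of the pools with RPE. The log2 change was 0.11 ± 0.094 (SE), with a 95% interval of -0.0954 to 0.32 (limma adjusted p = 0.369). Its sign turned after quantile normalization, at a log2 change of -0.00197 (adjusted p = 0.991).

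The gene gata1a read 18.7, 20.5 and 18.5 in retina with RPE, against 16.002, 17.0 and 16.9 in retina. The pools with RPE all lay above the retina pools, but the distance was small. The log2 change was 0.21 ± 0.085 (SE), with a 95% interval of 0.0188 to 0.40 (limma adjusted p = 0.0826). This probe set is dim, with a mean log2 intensity of 4.16. Dim probe sets, those with a mean log2 value under 6, lay higher with RPE as a class. Their median log2 change was 0.12 over 7371 probe sets, against -0.06 over the 8131 brighter ones, and 22.9% of the dim ones were called higher. A limma fit with both an intensity trend and robust variances called gata1a higher (adjusted p = 0.0444), while cyclic loess lowered its log2 change to 0.11 (0.372).

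The log2 change of slc4a1a had the opposite sign to those of hbbe2 and hbae3. Its probe set read 37.2, 35.7 and 33.1 in retina with RPE, against 45.3, 41.0 and 39.8 in retina. All 3 pools with RPE lay below all 3 retina pools. The log2 change was -0.25 ± 0.091 (SE), with a 95% interval of -0.45 to -0.0463, and just missed the threshold (limma adjusted p = 0.0576). Cyclic loess and quantile normalization called it lower, at log2 changes of -0.40 (adjusted p = 0.0148) and -0.39 (0.0129). Centring on ribosomal protein genes moved it to -0.18 (0.259). At a mean log2 value of 5.27 it too is dim, and 5.24% of dim probe sets were called lower.

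The 5 genes were also set against each other within each pool, as the difference between 2 genes' log2 changes. The change of hbbe2 exceeded that of alas2 by 0.60, that of gata1a by 0.50 and that of slc4a1a by 0.96. The change of hbae3 exceeded that of alas2 by 0.34 and that of slc4a1a by 0.70, each by its brightest probe set. The change of slc4a1a was exceeded by that of alas2 by 0.36 and by that of gata1a by 0.46. In these 7 comparisons the groups of pools did not overlap, and the exact permutation test gave 0.1 (0.138 adjusted over the 11 comparisons). The difference of 0.26 between hbbe2 and hbae3 had p = 0.2 (exact permutation), and that of 0.24 between hbae3 and gata1a had p = 0.4, as did that of -0.0944 between alas2 and gata1a. With 3 pools a group this test could not pass the threshold for any pair, so the differences are given by their values alone.

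Other globin genes gave a mixed picture. In the RefSeq gene table for GRCz12tu, hbbe2 lies between hbbe3 and hbae5 in a small globin cluster, and hbae3 lies beside hbae1.3 at the edge of the larger cluster. Of the 23 symbols on the globin list, 5 had a probe set of their own. Of these 5, 2 were called higher (the 2 embryonic globins above) and 0 lower, or 40% and 0%, against 19.4% and 17% of all named genes. At an unadjusted p under 0.05 the limma counts were 3 and 1.

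The neighbouring embryonic beta globin gene hbbe3 read 84.1, 101.0 and 93.0 in retina with RPE, against 110.2, 107 and 113 in retina. All pools with RPE lay below all retina pools, opposite to hbbe2, at a log2 change of -0.25 ± 0.093 (SE; limma adjusted p = 0.0616). Cyclic loess called it lower (-0.29, adjusted p = 0.0382). The adult-type alpha globin hbaa1 read 49.1, 56.1 and 61.2 in retina with RPE, against 40.6, 49.9 and 44.3 in retina. Its groups overlapped by a narrow margin (log2 change 0.30 ± 0.11, SE; limma adjusted p = 0.0599), and it was called higher without the first pool with RPE (0.0422) or the second retina pool (0.0286). The adult-type beta globin hbba2 was dim, at 25.05 ± 1.63 in retina with RPE and 24.3 ± 1.119 in retina (SD, n = 3 each; limma adjusted p = 0.723), and its sign turned under cyclic loess and quantile normalization.

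A further 4 probe sets are listed with several globin genes each. They are given without a gene name. The brightest read 4316, 3435 and 2856 in retina with RPE, against 2433, 2343 and 2906 in retina. Its groups overlapped, since the third retina pool exceeded the third pool with RPE. It was called higher (log2 change 0.45 ± 0.15, SE; limma adjusted p = 0.0388), and lost the call without the first (0.128) or the second (0.0966) pool with RPE or the first (0.0948) or the second (0.0829) retina pool. The next brightest read 1198, 918 and 797 in retina with RPE, against 640.3, 508 and 859 in retina, and just missed the threshold (log2 change 0.55 ± 0.19, SE; limma adjusted p = 0.0509). It was called without the third retina pool (0.0126). One of the dimmer pair read 76.5, 72.4 and 70.5 in retina with RPE, against 59.9, 64.5 and 64.7 in retina (limma adjusted p = 0.0711). The other was called lower, at 19.2, 17.4 and 14.6 in retina with RPE, against 25.3, 23.7 and 23.0 in retina (log2 change -0.50 ± 0.11, SE; limma adjusted p = 0.00762). The annotation lists this set and the next brightest one with the same genes, and their log2 changes of -0.50 and 0.55 have opposite signs.

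**Figure D2:**
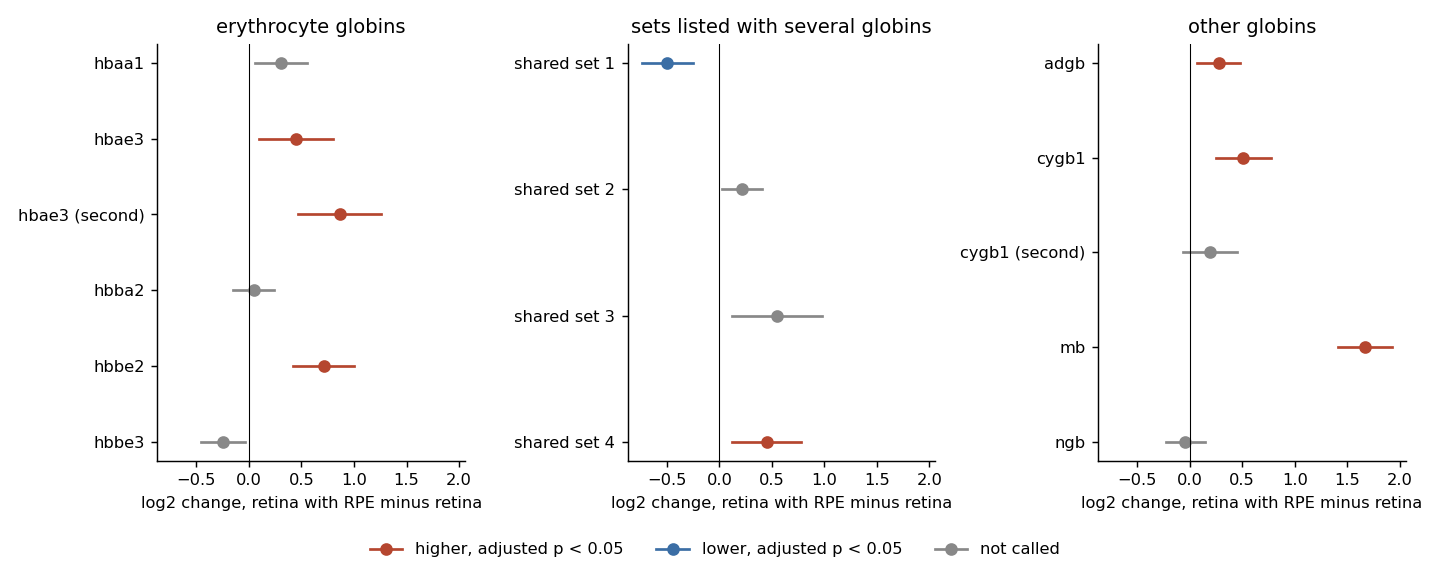
Log2 change, retina with RPE minus retina, of every globin probe set, with lines for the 95% limma interval and colour for the call. The left panel holds red cell globins, the middle panel the 4 sets listed with several globin genes, and the right panel globins of other tissues, where mb has the largest change at 1.67.

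Most of the globin probe sets shared their highest pool within a group, while the order of the other pools varied. The first pool with RPE was the highest of its group for hbbe2, for both hbae3 probe sets and for the 2 brightest shared sets. The third retina pool was the highest of its group for both hbae3 probe sets and for the same 2 shared sets. For hbbe2 the second retina pool was the highest, by a small margin. Over all 10 globin probe sets the first pool with RPE was highest of its group in 7, and the third retina pool in 6. Those 7 were hbbe2, both hbae3 sets and the sets listed with several globin genes, so they are not 7 separate genes. The share over all probe sets was not taken. For hbbe3, hbaa1 and hbba2 the first pool with RPE was instead the lowest of its group.

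Lists of other cell types that the dissections could hold were measured beside the globins, and 19.4% of all named genes were called higher. Over the 5 globin genes the summed intensity, which is mostly hbae3, was 3825 to 5668 in retina with RPE and 2892 to 3759 in retina. The summed intensity of 21 leukocyte genes was 994 to 1062 in retina with RPE and 729 to 821 in retina, and 10 of the 21 (47.6%) were called higher. The sum of 8 vessel endothelium genes was 466 to 502 in retina with RPE and 360.4 to 414 in retina, with 5 of the 8 (62.5%) called higher. For 23 skeletal muscle genes the sums were 1474 to 1657 in retina with RPE and 1079 to 1191 in retina, with 9 (39.1%) called higher. For 24 genes of mesenchyme and cartilage they were 1593 to 2227 in retina with RPE and 1035 to 1096 in retina, with 18 (75%) called higher.

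In these 4 lists the sums of the groups did not overlap. The first pool with RPE had the highest sum for leukocyte, muscle, mesenchyme and RPE genes. For endothelium and for neural crest and pigment cell genes the second pool with RPE was highest, and for thrombocyte genes the third. The third retina pool had the highest sum of its group for leukocyte, endothelium, muscle, RPE and thrombocyte genes. For mesenchyme the second retina pool was highest, and for neural crest and pigment cell genes the first. No marker of these lists is listed at 0, but with no detection call this does not show which of them were detected. The largest leukocyte rises were in coro1a, at 79.7 in retina with RPE and 37.8 in retina, and mpx, at 126 and 62.4. The other coro1a probe set was called too (0.47). Other mpx probe sets changed by 0.37 (called), 0.13 and 0.053 (not called). Of the 21 leukocyte genes 10 were called higher and 10 were not called, among them ptprc (0.0024), lyz (0.17), cd74a (-0.089) and ncf1 (-0.032). The 1 called lower was ncf4 (-0.30, limma adjusted p = 0.0272). The endothelial gene plvapb averaged 162 in retina with RPE and 86.6 in retina. Of 5 thrombocyte genes 1 was called higher (20%), with a median log2 change of 0.050 and a summed intensity of 229 to 243 in retina with RPE and 194 to 213 in retina. That 1 was f13a1b, at 167 in retina with RPE and 136 in retina, and its call was lost without the first (0.0697) or the third (0.0926) pool with RPE or the first retina pool (0.0762). Other f13a1b probe sets changed by 0.31 (called) and 0.021 (not called). The tight junction gene cldn5a, placed on the endothelium list, was called lower by its brightest probe set, at a log2 change of -1.12. Its other probe sets were at 0.35 (called higher, limma adjusted p = 0.0168) and 0.056 (not called). The largest muscle rises were in eno3 (1.37) and acta1a (0.83), and the largest cartilage rises in col2a1a (1.82) and col9a2 (1.33). Of 14 neural crest and pigment cell genes 8 (57.1%) were called higher, among them gch2 by 2.89 and crestin by 2.24. The other gch2 probe set, at 0.10, was not called. The summed intensity of the 14 genes, which is mostly tfap2a, overlapped, at 6490 to 7344 in retina with RPE and 6711 to 7732 in retina. The gene tfap2a alone averaged 5459 in retina with RPE and 6506 in retina, and was not called (limma adjusted p = 0.0700). The log2 change was positive for 13 of the 14 genes. Of 10 RPE genes 8 (80%) were called higher, among them rpe65a by 3.61 and pmelb by 2.87. What part such tissue has in the globin difference was not tested.

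**Figure D3:**
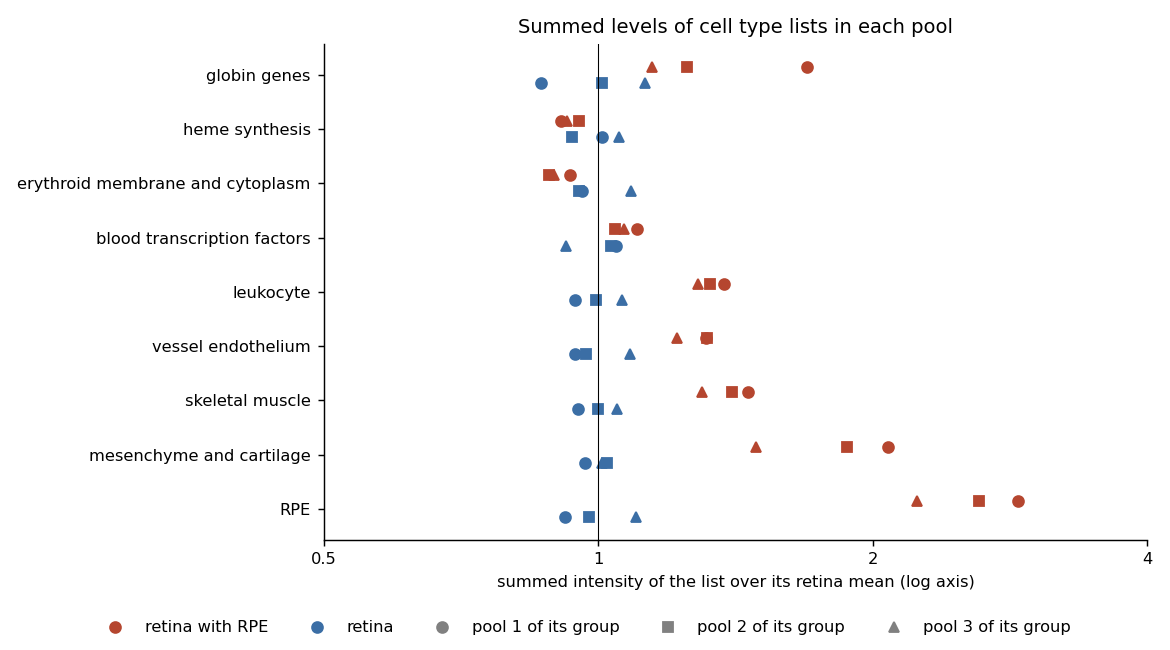
Summed intensity of selected gene lists in every pool, divided by the mean of that list in retina, on a log axis. Within each row the marks of retina with RPE are drawn over those of retina, whatever their values, and symbols give the pool number. Globins of other tissues, iron handling, heme breakdown, thrombocytes, and neural crest and pigment cells are not drawn. The globin sum reaches 1.70 in the first pool with RPE, while the heme synthesis list stays near 1 in all pools. The red cell membrane list lies at 0.88 to 0.93 in retina with RPE and 0.95 to 1.09 in retina.

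Of 12 measured genes of heme synthesis, 0 were called higher and 2 lower (16.7%), against 19.4% and 17% of all named genes, with a median log2 change of -0.17 against 0.04 over all genes. At an unadjusted p under 0.05 the limma counts were 1 higher and 3 lower. The ubiquitous first enzyme, encoded by alas1, averaged 779 ± 53.3 in retina with RPE and 649.8 ± 71.2 in retina (SD, n = 3 each; limma adjusted p = 0.0732), and was called higher under cyclic loess (0.0213), quantile normalization (0.0184) and ribosomal centring (0.0329), and without the third retina pool (0.0448).

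The later enzymes did not pass the test. The log2 changes were -0.23 for alad, -0.19 for uros, 0.055 for urod, -0.17 for cpox and 0.12 for fech, which inserts the iron (limma adjusted p = 0.119 to 0.670 over these genes). The signs of urod and fech were not stable: urod turned without the first retina pool and fech under cyclic loess and quantile normalization. The 2 genes called lower were slc25a38b, whose human counterpart carries glycine into mitochondria, at 166 ± 13.8 in retina with RPE and 390.3 ± 57.9 in retina (SD, n = 3 each; log2 change -1.23 ± 0.12, SE; limma adjusted p = 1.8e-04), and clpxa. The probe sets of clpxa disagreed, at log2 changes of -0.39 and -0.45 (both called) and 0.30 (called) and 0.25. The call of its brightest set was lost without any 1 of the pools with RPE (adjusted p = 0.0814, 0.0838 and 0.0617) or the first retina pool (0.0740), and so 1 heme gene was called lower without the third pool with RPE.

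Of 11 genes of iron handling, 1 was called higher (9.09%) and 2 lower (18.2%), against 19.4% and 17% of all named genes. The ferritin gene fthl27 averaged 4750 ± 193 in retina with RPE and 5901 ± 315 in retina (SD, n = 3 each; log2 change -0.31; limma adjusted p = 0.0190), and the iron transporter gene slc11a2 changed by -0.34 (0.0105). The fthl27 call was lost without the first (0.0675) or the third (0.0552) pool with RPE or the second retina pool (0.0526). The dim ferritin gene fthl28 was higher at 0.27 (0.0323), and that call was lost without any 1 of the pools with RPE (0.0525 to 0.0970) or the second (0.0746) or the third (0.0699) retina pool. The mitochondrial iron importer of red cells, slc25a37, read 23.3 ± 2.198 in retina with RPE and 20.5 ± 1.65 in retina (SD, n = 3 each; limma adjusted p = 0.192). Of 3 genes of heme breakdown and binding, 0 were called in either direction, and 0 had an unadjusted limma p under 0.05.

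Of 17 genes of the red cell membrane and cytoplasm, 4 were called higher and 4 lower (23.5% each), near the 19.4% and 17% of all named genes, and slc4a1a was not called. Without the third pool with RPE 2 were called lower. Without dim probe sets 1 was called higher, of fewer genes, since dim genes called with all probe sets, such as tmod4 and rhcgb, were not tested in that fit. The summed intensity of the 17, which is mostly prdx2, was 7459 to 7872 in retina with RPE and 8051 to 9179 in retina. These sums did not overlap between the groups. The gene prdx2 alone averaged 4786 in retina with RPE and 5121 in retina, and was not called. The largest rises were in the water channel gene aqp1a.1, also found in vessels (log2 change 1.36 ± 0.14, SE; limma adjusted p = 2.1e-04), in tmod4, a tropomodulin known from muscle (0.76), and in rhcgb, an ammonia channel gene known from skin and gill (0.73). The largest falls were in nt5c3a, a pyrimidine nucleotidase (-0.67), the red cell carbonic anhydrase gene cahz (-0.63) and the hexokinase gene hk1 (-0.63). The call of cahz was lost without the third pool with RPE (0.0598). Other probe sets of nt5c3a (-0.054) and hk1 (0.035 and 0.016) were not called. The spectrin gene sptb, part of the red cell skeleton, averaged 63.3 ± 5.51 in retina with RPE and 52.8 ± 3.40 in retina (SD, n = 3 each; limma adjusted p = 0.0612).

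Of 23 transcription factors of red cells and blood progenitors, 10 were called higher (43.5%) and 1 lower (4.35%), against 19.4% and 17% of all named genes. Without the third pool with RPE 6 were called higher and 0 lower. Without dim probe sets, a fit that called 1179 of 8131 probe sets higher, 5 were higher and 0 lower. Dim genes of the list, such as gata2a, nfe2 and klf17, were not tested in that fit, though called with all probe sets. The largest rises were in gata2a (log2 change 0.86 ± 0.10, SE; limma adjusted p = 3.6e-04), a factor of blood progenitors, vessels and neurons, and nfe2 (0.63 ± 0.078, SE; 5.1e-04), a factor of red cells and thrombocytes. They were followed by klf3 (0.44), ldb1a (0.43), klf17 (0.43), a red cell Krüppel-like factor of fish, and hhex (0.40), which also acts in endothelium. The hhex call was lost without the second (0.0528) or the third (0.0633) pool with RPE. The factor klf1, which in mammals switches on adult beta globin, averaged 18.4 ± 0.670 in retina with RPE and 16.4 ± 0.667 in retina (SD, n = 3 each; limma adjusted p = 0.132). The blood progenitor factors tal1 and lmo2, at log2 changes of 0.0089 and -0.037, were not called. The 1 factor called lower, e2f4, was named after its values were seen, as were sptb, slc25a37, klf1, tal1 and lmo2. Its brightest probe set changed by -0.33 (limma adjusted p = 0.0458) and its other probe set rose by 0.38.

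**Figure D4:**
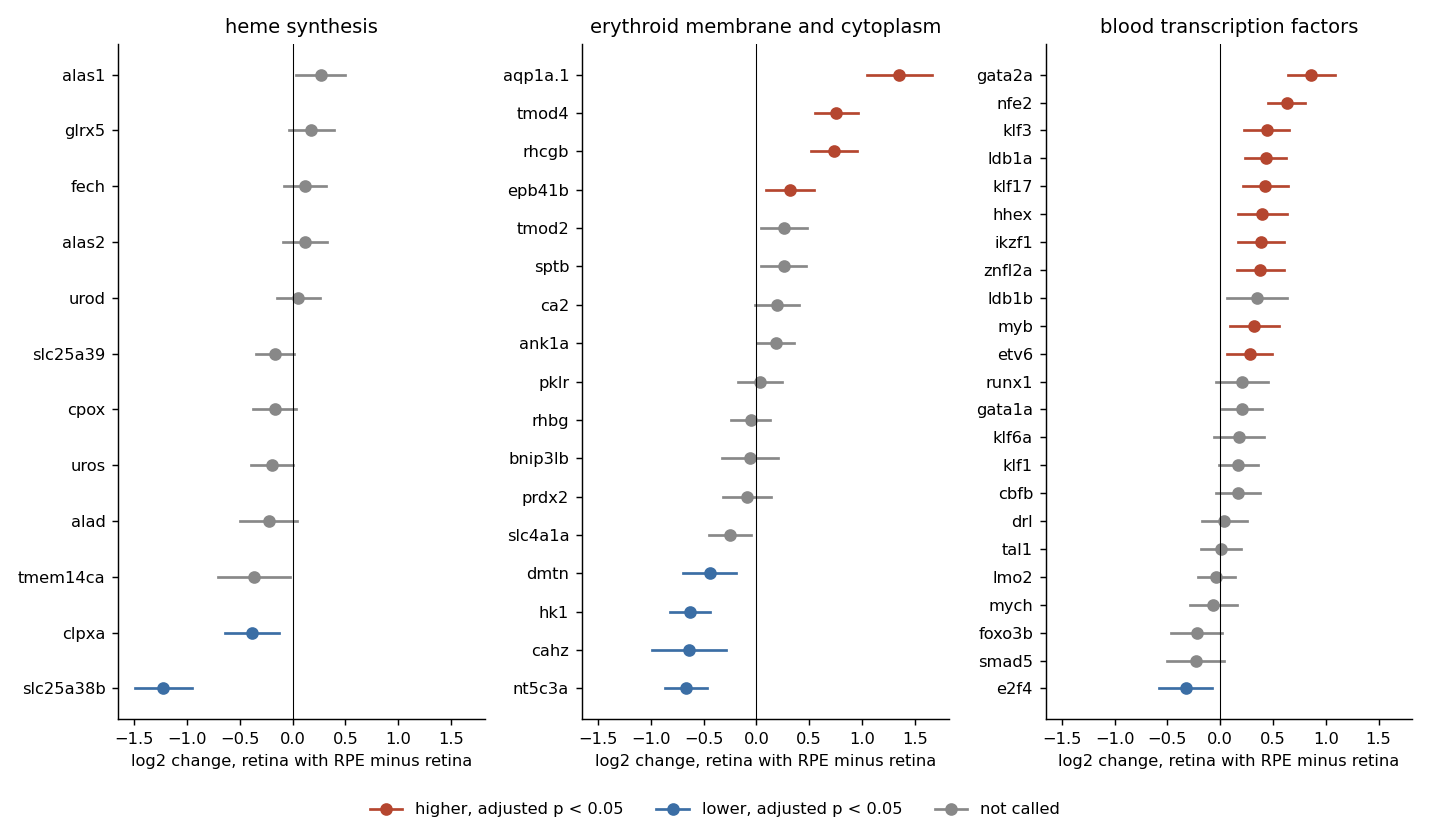
Log2 change, retina with RPE minus retina, of the brightest probe set of each measured gene in 3 lists, ordered by size, with lines for the 95% limma interval and colour for the call. The heme list has no gene called higher, the membrane list splits 4 and 4, and the transcription factor list has 10 of 23 called higher, led by gata2a.

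Over the 6 red cell lists together, a grouping chosen after the data were seen, 17 of 71 genes were called higher (23.9%) and 9 lower (12.7%), against 19.4% and 17% of all named genes. Their median log2 change was 0.12, against 0.04 over all named genes. Without the third pool with RPE the counts were 11 higher and 4 lower. Without dim probe sets, which leaves fewer genes, 8 were higher, and after ribosomal centring 4 were lower. With the 4 globins of other tissues added, the counts were 20 higher and 9 lower of 75. In the 7 lists of other cell types, 59 of 104 genes (56.7%) were called higher.

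Globins of other tissues were measured too. The myoglobin gene mb read 341, 347 and 263 in retina with RPE, against 98.1, 102 and 96.7 in retina. All pools with RPE lay far above retina, and the second of them, not the first, was highest. The log2 change was 1.67 ± 0.11 (SE), a 3.18-fold rise (limma adjusted p = 5.2e-05). In the same pools 9 of 23 skeletal muscle genes were called higher (39.1%, against 19.4% of all named genes) and 14 were not called. The part of muscle in the mb rise was not tested. The cytoglobin gene cygb1 rose by 0.51 (limma adjusted p = 0.00888) by its brighter probe set, and the other, at 0.20, was not called. The androglobin gene adgb rose by 0.27 (limma adjusted p = 0.0412). That call was lost when any 1 of the 6 pools was left out (0.0536 to 0.145). The neuroglobin gene ngb was not called, at 17.3 ± 0.598 in retina with RPE and 17.8 ± 0.811 in retina (SD, n = 3 each; limma adjusted p = 0.731).

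The genes whose values across the 6 pools were most like each red cell gene were found by the mean absolute difference of log2 values, each centred on its own mean, among 8792 other genes. For hbbe2 they were myoc, sp4 and cbsb, at 0.072, 0.074 and 0.084. For hbae3 they were ucp2, klf2a and tmsb1, at 0.055, 0.086 and 0.086. With the group means taken out, hbbe2 was nearest to cped1, akap9 and sh3glb1b (0.028, 0.029 and 0.034), and hbae3 to fkbp10b (0.040), ucp2 (0.051) and arg2 (0.052). For alas2 they were spata18, sycp1 and dnai2a (0.026, 0.027 and 0.028), for gata1a a2m2f, rusf1 and zpd (0.017, 0.023 and 0.024), and for slc4a1a sprn (0.00463), cfhl4 (0.020) and map1lc3a (0.020). None of these is on the globin or red cell lists. Probe sets listed with several globin genes were left out of this search and could not be a match. With 6 pools and 8792 genes to choose from, these matches describe these arrays only.

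**Figure D5:**
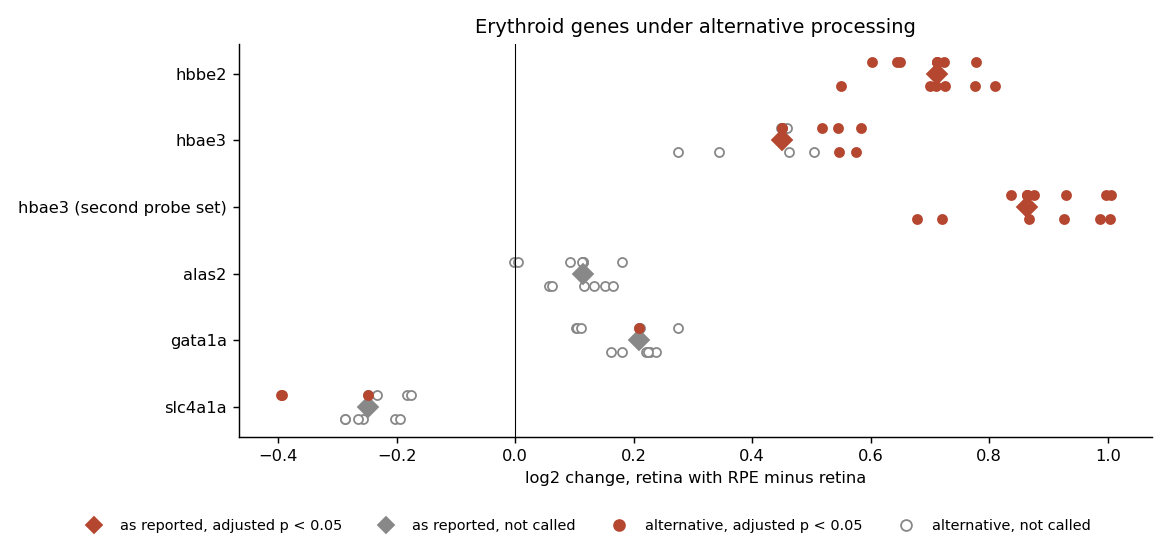
Log2 change, retina with RPE minus retina, of each of the 6 probe sets as reported (diamonds), under other processing (circles above) and with 1 pool left out (circles below). Filled red marks have an adjusted p under 0.05. All marks of hbbe2 and of the second hbae3 probe set are called, the brighter hbae3 set is called in 7 of 14, and alas2 in 0 of 14.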

How the data were processed

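The authors deposited a summarized intensity for each probe set on each array, and their size shows a linear scale. RMA, the affy package and R 2.2.0 are named per the submitters' processing notes, with no order of steps. The arrays did not share 1 distribution. With no detection call or background level to set a floor, changes of dim probe sets can be understated. Of 15617 probe sets, 115 controls were left out. Probe sets were named by the platform's annotation, with current symbols where the gene identifier allowed (10711 matched, 1 symbol changed): 10795 probe sets had 1 gene, 135 several and 4572 were not listed. Where a gene had several probe sets, the brightest by mean log2 intensity stood for it.

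Intensities were log2 transformed and compared with limma 3.58.1 (lmFit, eBayes; R 4.3.3), 2-sided, with all 6 arrays and Benjamini-Hochberg adjustment over 15502 probe sets. A simulation over 15502 probe sets returned 92 of 100 probe sets changed by log2 1, 39 of 100 changed by 0.5, and 4 false calls. It changed a far smaller share of probe sets than the 34.5% called in the data. Its counts of recovered and false calls therefore need not hold for the data. Comparisons between genes used exact 2-sided permutation (scipy 1.17.1). Named genes were all 5 genes, every globin gene and heme enzyme, up to 6 called genes of each other red cell list and up to 2 of each other list, each by size of change, and the 3 nearest by pattern, with exceptions stated. The genes and lists were chosen with earlier results of these data known. Alternatives were the replicate number as a block, 3 other scalings, a filter on dim probe sets, other variance and weight settings, a pseudocount of 16, the median over probe sets and leaving out each array. Figures were drawn with matplotlib 3.10.9.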

Additional observations from a re-analysis of the deposited data

How the results depend on the processing

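Over 14 other fits, hbbe2 and the second hbae3 probe set kept their direction and call. With 1 array left out, log2 changes were 0.55 to 0.81 for hbbe2, 0.68 to 1.00 for the second hbae3 probe set, 0.27 to 0.57 for the brighter hbae3 probe set, 0.0568 to 0.16 for alas2, 0.16 to 0.24 for gata1a and -0.29 to -0.19 for slc4a1a. The brighter hbae3 set kept its direction but missed the threshold with array weights (0.46, adjusted p = 0.0508) and a pseudocount of 16 (0.45, adjusted p = 0.0907). The median over both hbae3 probe sets was 0.66. Calls appeared for gata1a with trend and robust settings (0.21) and for slc4a1a under cyclic loess (-0.40) and quantile normalization (-0.39). Quantile normalization turned alas2 to -0.00197 and hbba2 to -0.0733, and cyclic loess turned hbba2 to -0.0797. The sign of fech turned to -0.0318 under cyclic loess and -0.0378 under quantile normalization, that of ngb to 0.0251 after centring on ribosomal protein genes and that of urod to -0.00371 without retina replicate 1 (-0.00371 to 0.12 with any 1 array left out). The causes were not tested.

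The red cell lists with the globins of other tissues had 13 to 18 higher and 4 to 10 lower with 1 array left out, 9 higher without dim probe sets, which leaves fewer genes, and 4 lower after ribosomal centring. Without those globins, a grouping chosen after seeing the data, they had 11 to 16 higher and 4 to 10 lower with 1 array left out. The lists of other cell types had 49 to 55 higher and 1 to 2 lower with 1 array left out. Without dim probe sets, which again leaves fewer genes, they had 24 higher and 0 lower. After ribosomal centring they had 1 lower and with the pseudocount 1 lower. Over all probe sets, the share of calls that lay higher was 54.9%, against 68.6% after ribosomal centring and 37.9% without dim probe sets. Without the dim ones 3112 of 8131 probe sets were called, against 5355 of all 15502. Without the third pool with RPE there were 3439 calls.

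The replicate number as a block gave the brighter hbae3 set 0.45 (adjusted p = 0.0609) and slc4a1a -0.25 (adjusted p = 0.0471), with 5786 calls in all. Deviations of same-numbered arrays correlated at 0.175, 0.0786 and 0.13, not above 0.1 in every pair, so the arrays were taken to share only a number. Each array correlated best with its own number (other pairs -0.15 to 0.029), which comes from the data and not the design. Deviations from a group mean cancel within the group, so a positive correlation for the same number pushes the other pairs down. The contrast therefore cannot decide whether the arrays were paired. The labels of retina with RPE replicates 2 and 3 also carry codes numbered 3 and 4, so the number used for the block is itself uncertain.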
